A study of Mus musculus with 80 samples.

Results

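Chrna4, Ptgds, Treh, Slc34a2, A1bg, Serpina9 and Aifm3 are 7 of the 20105 genes counted in mouse liver nuclei, chosen by the size of the fasted-over-fed change of their RNA in hepatocyte nuclei, among genes outside the well-known fasting pathways and with no fixed threshold. Those values are given below as a description, with no test. Tests are given only for libraries of the other mouse line and for comparisons that the choice did not use. Among 12942 genes ordered by the size of the fitted change, 6 of the 7 ranked 10 or better at 1 time at least. The best rank of Aifm3 was 589. These ranks come from the values that chose the genes, so they describe the choice and do not test the name of extreme responder.

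The study sequenced nuclear RNA of the liver in female mice, of 2 lines. HEP-INTACT mice carry a tag on hepatocyte nuclei and MAC-INTACT mice carry one on macrophage nuclei, so that the nuclei of 1 cell type can be bound to beads. Food was withdrawn at zeitgeber time 12 (ZT12, the start of the dark phase, when mice eat). Livers were taken 3, 8, 16 and 24 h later, at ZT15, ZT20, ZT4 and ZT12, each time beside mice with free access to food. A difference of the fasting effect with hours of fasting therefore cannot be told apart from one with time of day. Each line has 8 groups (fed or fasted, 4 times) of 4 libraries of tagged nuclei, and for each group 1 library of unpurified liver nuclei, called a pool here because it holds RNA of 4 mice. The labels used here do not name the promoter behind either tag, the age of the mice or how many mice went into a tagged library. A p-value here therefore reflects variation from library to library, which need not be that from mouse to mouse.

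The 7 genes belong to different kinds of biology. Chrna4 encodes a subunit of the nicotinic acetylcholine receptors, ion channels opened by acetylcholine that are best known from neurons. Ptgds encodes the lipocalin-type prostaglandin D synthase, which turns prostaglandin H into prostaglandin D and also carries small lipophilic molecules. Treh encodes trehalase, which splits the disaccharide trehalose into glucose and is best known from the brush border of intestine and kidney. Slc34a2 encodes a sodium-dependent phosphate cotransporter of apical membranes. A1bg encodes alpha-1B-glycoprotein, a plasma protein made by the liver, whose RNA in mouse liver is known to be female-predominant. Serpina9 encodes a clade A serpin, of the family that includes alpha-1-antitrypsin and other protease inhibitors, and is best known from germinal centre B cells. Aifm3 encodes a relative of apoptosis-inducing factor.

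Total counts per library were 12597786 to 30089561 for hepatocyte nuclei, 14968505 to 44694933 for macrophage nuclei and 13246494 to 35514304 for the pools. Levels are CPM, the count of a gene scaled by the total of its library, in the order of replicates 1 to 4. Fold changes are fasted over fed on the log2 scale with standard errors, from a fit to all 32 tagged libraries of a line. The cell type labels were checked on markers. The 10 Kupffer cell and macrophage markers stood at a median of 0.145 times the pool level in fed hepatocyte nuclei and at 22.0 times the pool level in fed macrophage nuclei, and 12 hepatocyte markers at 1.08 and 0.410 times. Summed Kupffer cell and macrophage markers in hepatocyte nuclei were 37.6 to 47.3 CPM in fed and 55.6 to 86.3 CPM in fasted libraries at 8 h, and overlapped between the groups at 3 and 16 h. At 24 h they were 26.6 to 44.3 and 47.0 to 53.3 CPM. Summed cholangiocyte markers (8 genes) were lower in every fasted hepatocyte library than in every fed one of the same time: 317.5 to 430.2 CPM fed and 100.9 to 140.8 fasted at 3 h, 391.6 to 493.5 and 80.8 to 122.6 at 8 h, 454.8 to 636.0 and 240.0 to 370.0 at 16 h, and 318.0 to 533.3 and 138.8 to 212.3 at 24 h. Most of that sum was Pkhd1, at a mean of 514.1 CPM fed and 253.6 CPM fasted at 16 h. Bicc1 had lower fasted means at 3 h (37.1 CPM fed and 19.7 fasted) and 8 h (34.7 and 23.65), and higher ones at 16 and 24 h. Spp1 had lower fasted means at all 4 times and Sox9 at all but 16 h, with means of at most 2.91 CPM. Krt19, Krt7, Epcam and Cftr, which define bile duct cells, had means under 1 CPM in all 8 groups. The part of these markers in the values below was not tested. A pair of libraries needs naming before the results. Replicate 2 of the 3 h fed hepatocyte libraries and the 24 h fasted HEP-INTACT pool lay toward the opposite feeding state over 99 other genes that differed by more than 2 on the log2 scale at 16 h. Of the members, Chrna4, A1bg, Ptgds and Slc34a2 leaned the same way in the fed library, in which Aifm3, Serpina9 and Treh did not. In the pool Chrna4, A1bg, Ptgds and Treh lay toward the fed level, and Serpina9 and Aifm3 lay within the range of the tagged fasted libraries. Slc34a2, at 1.46 CPM there, lay above the tagged fasted libraries and also above its fed partner (0.755 CPM). On the mean signed log2 level of those genes, the fed library stood at -2.15, the other 3 fed libraries between -2.89 and -2.63 and the 3 h fasted libraries between -1.10 and -0.65. The pool stood at -1.13, its fed partner at -2.38 and the 4 tagged 24 h fasted libraries between -0.38 and -0.09.

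Chrna4 (chr2:181022311-181039177, minus strand, build mm10) had the largest fitted change of any gene at both 16 and 24 h. In hepatocyte nuclei the 4 fed libraries held 90.8, 1.69, 28.5 and 67.3 CPM at 3 h, and the 4 fasted ones 1.74, 4.98, 11.3 and 4.33 CPM. At 8 h the fed values were 51.8, 42.1, 84.8 and 91.0 CPM and the fasted values 2.57, 1.16, 1.94 and 0.532 CPM. The groups overlapped at 3 h only through fed replicate 2, the library named above, and were far apart at 8 h. At 16 h fed libraries held 18.0, 61.6, 19.95 and 23.2 CPM against 0.233, 0, 0.0430 and 0.148 CPM after fasting. At 24 h they held 22.0, 56.6, 13.9 and 16.2 CPM against 0, 0.114, 0.0997 and 0.0794 CPM. Chrna4 RNA was thus close to the limit of detection after 16 h without food, with 4, 0, 1 and 3 counts in the fasted libraries at 16 h against 297 to 1004 in the fed ones. The fitted changes were -2.90 ± 0.70 (SE) at 3 h, -5.35 ± 0.81 at 8 h, -8.19 ± 1.12 at 16 h and -8.35 ± 1.15 at 24 h. Without fed replicate 2 the 3 h change was -3.30. Fed means were highest at 8 h (67.4 ± 24.1 CPM, SD, n = 4), followed by 3 h, 16 h and 24 h (27.2 ± 19.9 CPM), and each differed from the next by less than its SD.

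**Figure D1:**
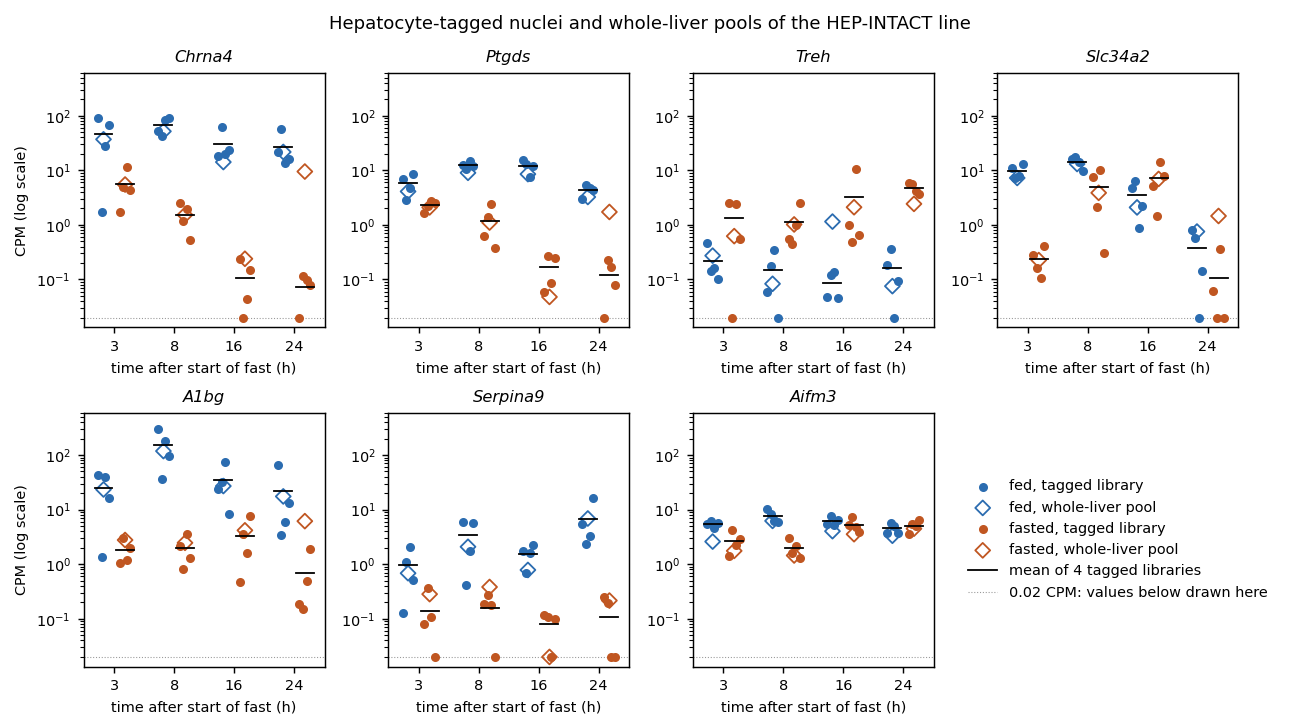
Level of each gene (CPM, log axis) in the HEP-INTACT line against hours since the start of the fast, with 1 filled point per tagged library, a black bar at the mean of 4 and an open diamond for the pool of 4 mice; values under 0.02 CPM are drawn on the dotted line. Fasted Chrna4 and Ptgds libraries lie below all fed ones at 8, 16 and 24 h, fasted tagged Treh libraries lie above the fed tagged ones at these times, and tagged Aifm3 libraries separate at 3 and 8 h but not later.

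The pools of the HEP-INTACT line gave the same direction for Chrna4 at each time, with 36.9 CPM fed and 5.49 fasted at 3 h, 51.8 and 1.53 at 8 h, 14.2 and 0.239 at 16 h, and 21.7 and 9.49 at 24 h. The 24 h fasted pool, named above, held more Chrna4 RNA than any of the 4 tagged libraries of its condition. In a bulk sample, fewer cells with the RNA and less RNA per cell cannot be told apart.

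In macrophage nuclei, from other mice, Chrna4 fell at 8, 16 and 24 h. The fed libraries held 11.7, 14.7, 27.2 and 24.6 CPM at 8 h and the fasted ones 0.308, 0.124, 1.70 and 1.51 CPM. At 16 h the fed values were 40.9, 16.6, 50.4 and 8.84 CPM and the fasted values 0.0447, 0.0494, 0.0459 and 0.164 CPM. At 24 h they were 5.66, 6.58, 6.70 and 5.72 CPM against 0.0467, 0, 0.216 and 0.0571 CPM. No fasted library reached the lowest fed library at these 3 times. The changes were -4.39 ± 0.69 at 8 h, -8.41 ± 0.91 at 16 h and -6.08 ± 0.94 at 24 h (edgeR adjusted p = 1.61e-04, 8.29e-07 and 5.68e-05), and the 16 h change was the largest of 13864 genes tested. At 3 h the fed libraries (5.63, 3.06, 13.9 and 5.05 CPM) and the fasted ones (0.332, 4.57, 1.16 and 3.50 CPM) overlapped. That change was -1.42 ± 0.60, with an edgeR adjusted p of 0.113 that became 0.0485 without fasted replicate 2. The fasting effect on Chrna4 differed between the 4 times (edgeR adjusted p = 0.00276), the only member for which it did by this test, in which 4.65% of all genes passed.

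Of 15 other nicotinic receptor subunit genes, 4 passed the filter on low counts in hepatocyte nuclei. Chrna2, another alpha subunit, rose by 1.79 ± 0.42 at 3 h, 2.71 ± 0.43 at 8 h and 3.25 ± 0.48 at 16 h (edgeR adjusted p = 0.00104, 1.55e-05 and 2.23e-05). Chrne, the subunit of the adult muscle receptor, went the other way: -3.90 ± 0.78 at 8 h, -4.15 ± 0.72 at 16 h and -2.33 ± 0.66 at 24 h (edgeR adjusted p = 2.53e-04, 1.74e-04 and 0.0108). Chrne shares 997 bases with 4930544D05Rik on the opposite strand, and reads of the 2 genes are not told apart where counting ignored strand. Chrnb2, the beta subunit that pairs with the product of Chrna4 in brain, rose only at 24 h, by 1.19 ± 0.31 (edgeR adjusted p = 0.00616). The list as a whole had 1 gene called at 3 h and 2 at each later time, where 39.9%, 38.7%, 18.1% and 24.0% of all 12942 genes were called at 3, 8, 16 and 24 h.

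Ptgds (chr2:25466712-25469749, minus strand) lies on the same chromosome as Chrna4, far from it, and was the gene most like it. Among 11486 genes averaging 1 CPM or more, over the 32 hepatocyte libraries, the Pearson correlation of log2 CPM between Ptgds and Chrna4 was 0.948, the highest of all genes for both. It was 0.904 over the 16 pools. The next genes were the same for both: H2-Q10, a secreted class I molecule of liver with near-identical relatives (0.926 with Chrna4 and 0.931 with Ptgds), and Mlxipl, the carbohydrate response element-binding protein gene (0.912 and 0.903). The points of such a correlation share the feeding state and time of their libraries, so it is a description of the pattern only.

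In hepatocyte nuclei Ptgds was at 7.01, 2.88, 4.68 and 8.41 CPM in fed libraries at 3 h and at 1.62, 2.23, 2.72 and 2.51 CPM in fasted ones. The 8 h values were 12.59, 10.6, 15.1 and 12.1 CPM fed and 0.633, 1.38, 2.41 and 0.380 CPM fasted. The separation, narrow at 3 h, was wide at 8 h and wider afterwards. At 16 h fed libraries held 15.2, 13.2, 7.59 and 12.1 CPM against 0.0582, 0.273, 0.0859 and 0.247 CPM, and at 24 h 3.01, 5.27, 4.83 and 4.39 CPM against 0, 0.229, 0.166 and 0.0794 CPM. The fitted changes were -1.15 ± 0.36, -3.37 ± 0.39, -6.19 ± 0.50 and -5.00 ± 0.53 in the order of time, and -1.40 at 3 h without fed replicate 2. Fed Ptgds was highest at 8 h (12.59 ± 1.86 CPM) and 16 h (12.04 ± 3.23 CPM), which did not differ beyond their SD. It was lower at 3 h (5.75 ± 2.45 CPM) and 24 h (4.38 ± 0.981 CPM), and these did not differ from each other beyond their SD.

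Ptgds fell in macrophage nuclei at every time. Fed libraries held 2.96, 1.53, 3.15 and 1.71 CPM at 3 h against 0.631, 0.729, 0.542 and 0.676 CPM after fasting, and 3.33, 3.35, 4.00 and 4.36 CPM at 8 h against 1.47, 0.825, 1.59 and 1.27 CPM. At 16 h they held 4.37, 7.53, 5.95 and 2.70 CPM against 0.157, 0.198, 1.2 and 0.395 CPM, and at 24 h 1.47, 1.10, 2.64 and 1.47 CPM against 0.234, 0.115, 0.0718 and 0.114 CPM. Fed and fasted values did not overlap at any time. The changes were -1.72 ± 0.42 at 3 h, -1.46 ± 0.40 at 8 h, -3.39 ± 0.44 at 16 h and -3.62 ± 0.55 at 24 h (edgeR adjusted p = 0.00922, 0.0152, 1.28e-05 and 5.01e-05). Whether the effect differs between times was not called (edgeR adjusted p = 0.0546). It was called with DESeq2 (adjusted p = 0.00747), with library run as a term (edgeR adjusted p = 0.0344), and without 8 h fasted replicate 2, 3 h fasted replicate 3, 16 h fasted replicate 3 or 16 h fed replicate 4 (edgeR adjusted p between 0.0039 and 0.0488).

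The genome around Ptgds held other genes that fell in hepatocyte nuclei. Of 8 genes within 50 kb, 6 were tested, and 5 of them fell at 3 h, 4 at 8 h, 4 at 16 h and 3 at 24 h. None of the 6 rose by this test. Of all genes, 20.4%, 20.7%, 8.55% and 12.4% fell and 19.5%, 18.0%, 9.55% and 11.6% rose at these times. BC029214, 5.62 kb away, fell by 4.13 ± 0.37 at 3 h and by 2.67 ± 0.35 at 16 h on the log2 scale (edgeR adjusted p = 4.98e-09 and 5.36e-06). Lcn12, a lipocalin gene like Ptgds, fell by 3.03 ± 0.36 at 3 h (edgeR adjusted p = 2.86e-07) and was at -0.41 ± 0.36 at 24 h, not called. Abca2, a lipid transporter gene of the ABC family, fell by 2.79 ± 0.33 at 3 h (edgeR adjusted p = 2.48e-07). C8g, a lipocalin that is part of complement component C8, fell at all 4 times, by 0.65 to 1.06, and shares 942 bases with Fbxw5. These 4 neighbours had their largest fitted changes at 3 or 8 h, while that of Ptgds came at 16 h. Of the 17 neighbours tested around all members, 8, 9, 5 and 5 were called at 3, 8, 16 and 24 h, with 1 rise at each time. The 16 h count was 2 when the libraries of that time were fitted alone and 2 or 3 without fed replicate 2 or 4 or fasted replicate 3 or 4.

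**Figure D2:**
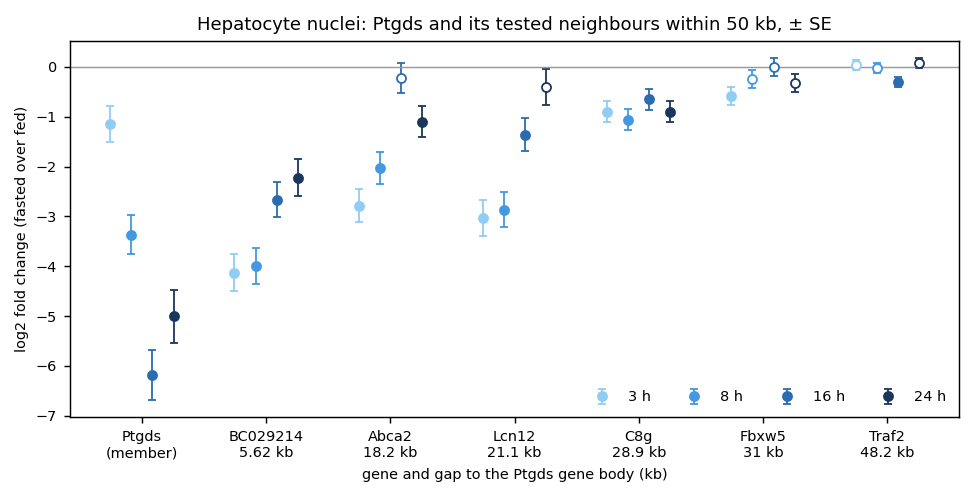
Fitted log2 fold change (fasted over fed, ± SE) in hepatocyte nuclei for Ptgds and its 6 tested neighbours, ordered by the gap between gene bodies in kb; shades of blue stand for 3, 8, 16 and 24 h, and neighbours' points are filled where the edgeR adjusted p is under 0.05. BC029214, Abca2 and Lcn12 lie lowest at 3 h, between -4.13 and -2.79, while Ptgds lies lowest at 16 h, at -6.19.

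The Ptgds promoter is shown because it holds the only D-box match among the members' promoters. The 250 bases before the RefSeq start were searched on both strands for GTAAACA (FoxO), CACGTG (E-box), TTCNNNGAA (STAT), TGACGTCA (CRE), TTATGTAA (D-box, the site of the PAR bZIP factors of the clock), the DR1 motif and the glucocorticoid response element. RefSeq promoters (GRCm38.p6) were matched for 6 of the 7 genes. In the GENCODE annotation Chrna4, Ptgds, Slc34a2 and A1bg begin further upstream, so that their windows lie inside the GENCODE gene. Slc34a2, for example, begins at 53038081 there and at 53049353 in RefSeq. Windows at the GENCODE starts were not searched. Capitals in the sequence mark a reverse-strand D-box match, 141 to 134 bases before the start, in a window at chr2:25469750-25469999, minus strand:
Ptgds: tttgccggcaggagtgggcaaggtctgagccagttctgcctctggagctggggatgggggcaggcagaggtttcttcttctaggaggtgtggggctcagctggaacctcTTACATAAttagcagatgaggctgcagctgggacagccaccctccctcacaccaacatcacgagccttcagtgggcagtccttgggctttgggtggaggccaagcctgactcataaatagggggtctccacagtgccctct
The D-box letters occur in 0.819% of 32851 promoter windows of this length. No match to any of the 7 motifs was found in the windows of Chrna4, Treh, Slc34a2 or Aifm3. Such a match is a description of the letters, and no match says nothing about the factors.

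Among 14 tested genes of prostaglandin synthesis, breakdown and reception, 6, 5, 2 and 3 were called in hepatocyte nuclei at 3, 8, 16 and 24 h, in both directions at all times but 16 h. The share of all genes called was 39.9%, 38.7%, 18.1% and 24.0% at these times. Slco2a1, the prostaglandin uptake transporter, fell by 1.71 ± 0.19 at 3 h and 1.65 ± 0.19 at 8 h (edgeR adjusted p = 6.48e-08 and 9.42e-08). Ptges, the microsomal prostaglandin E synthase, fell by 2.80 ± 0.62 at 3 h (edgeR adjusted p = 6.65e-04). Ptgr1, which reduces leukotriene and prostaglandin metabolites, fell at all 4 times, by 1.30 to 2.23. Ptger2, a prostaglandin E receptor, rose by 1.99 ± 0.38 at 8 h (edgeR adjusted p = 1.38e-04). The list's median change was -0.46 at 3 h, 0.14 at 8 h, -0.12 at 16 h and 0.01 at 24 h, against -0.03 to 0.01 for all genes.

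A1bg (chr15:60917589-60921270, minus strand) varied widely between fed libraries. Fed hepatocyte libraries held 43.6, 1.37, 39.7 and 16.2 CPM at 3 h and the fasted ones 1.07, 2.97, 1.17 and 1.96 CPM. At 8 h the fed values were 300.3, 36.8, 182 and 96.2 CPM and the fasted ones 2.20, 0.828, 3.52 and 1.29 CPM. Fed and fasted overlapped at 3 h only through fed replicate 2, the library that also stood low for Chrna4, and were separate at 8 h. At 16 h fed libraries held 24.0, 32.1, 73.7 and 8.46 CPM against 0.465, 3.60, 1.63 and 7.51 CPM, and at 24 h 65.2, 3.44, 6.05 and 13.5 CPM against 0.184, 0.152, 0.499 and 1.91 CPM. Within a fed group the highest library was thus several times the lowest, and yet no fasted library reached the fed ones at 8, 16 or 24 h. From 3 to 24 h the fitted changes were -3.66 ± 0.99, -6.26 ± 1.06, -3.37 ± 0.93 and -5.31 ± 1.15, and the first was -4.06 without fed replicate 2. The 8 h fed mean (154 ± 114 CPM) was the highest and the others (22.1 ± 29.1 to 34.5 ± 27.9 CPM) did not differ beyond their SD.

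A1bg fell in macrophage nuclei at all 4 times. The fed libraries held 28.7, 4.85, 22.9 and 32.1 CPM at 3 h against 0.399, 0.883, 1.30 and 0.584 CPM after fasting, and 3.66, 4.57, 18.7 and 25.0 CPM at 8 h against 0.960, 0.289, 0.493 and 0.449 CPM. At 16 h they held 10.5, 39.8, 5.95 and 19.8 CPM against 1.14, 0.544, 0.964 and 0.756 CPM, and at 24 h 5.97, 3.04, 5.52 and 7.90 CPM against 0.0935, 0.382, 0.108 and 0 CPM. Every fed library lay above every fasted one at each time. The changes were -4.64 ± 0.69, -4.44 ± 0.72, -4.39 ± 0.68 and -5.11 ± 0.87 at 3, 8, 16 and 24 h (edgeR adjusted p = 9.75e-05, 2.29e-04, 1.22e-04 and 1.70e-04). The difference between times was not called (edgeR adjusted p = 0.956). A1bg overlaps an annotated antisense transcript, 4930402D18Rik, and the sources used here do not say whether counting used the strand. Reads of the 2 transcripts are then not told apart.

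The A1bg promoter is shown because it holds matches to the E-box and to the STAT motif, the site type of the growth hormone-activated factor STAT5. Capitals mark the E-box, 235 to 230 bases before the start, and the STAT match, 84 to 76 bases before it, in RefSeq's window at chr15:60921271-60921520 (GRCm38.p6, minus strand):
A1bg: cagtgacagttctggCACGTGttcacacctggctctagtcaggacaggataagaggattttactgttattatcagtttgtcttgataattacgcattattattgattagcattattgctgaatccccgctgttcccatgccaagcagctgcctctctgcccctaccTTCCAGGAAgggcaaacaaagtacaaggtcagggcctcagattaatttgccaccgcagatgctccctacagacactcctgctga
The E-box letters occur in 6.02% and the STAT letters in 7.02% of all such windows, and the matches do not overlap. No other gene of the count table lies within 50 kb of A1bg.

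Among 18 other female-predominant liver genes tested, 5 fell and 3 rose at 3 h, 9 fell and 3 rose at 8 h, 3 fell at 16 h and 9 fell at 24 h, with no rise called at 16 and 24 h. Over all genes 20.4%, 20.7%, 8.55% and 12.4% fell and 19.5%, 18.0%, 9.55% and 11.6% rose at 3, 8, 16 and 24 h. At 24 h the list's median change was -1.45 against -0.01 for all genes. Cyp3a44 and Cyp2a4, cytochromes P450 of female liver, fell by 4.29 ± 0.79 and 2.47 ± 0.36 at 24 h (edgeR adjusted p = 2.89e-04 and 1.73e-05), and Hao2, a peroxisomal hydroxyacid oxidase, fell by 4.58 ± 0.74 at 8 h (edgeR adjusted p = 1.99e-05). Cux2, a transcription factor of female liver, went the other way at 3 h, with 2.25 ± 0.76 (edgeR adjusted p = 0.0199). The Cyp3a and Cyp2b genes are close paralogs whose reads may be divided among them by the counting. By likeness over the 32 hepatocyte libraries, A1bg was closest to Nid2 (0.857), Zbp1 (0.845) and Nudt7 (0.840).

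Serpina9 (chr12:103996620-104013652, minus strand) was near the limit of detection after fasting and variable in fed libraries. In hepatocyte nuclei the fed libraries held 0.126, 1.12, 2.04 and 0.519 CPM at 3 h, 5.86, 0.420, 1.77 and 5.73 CPM at 8 h, 1.73, 0.675, 1.61 and 2.21 CPM at 16 h, and 5.40, 2.34, 3.28 and 16.2 CPM at 24 h. The 16 fasted libraries held between 0 and 0.371 CPM. The groups overlapped at 3 h and were separate at 8, 16 and 24 h. Fitted changes were -2.46 ± 1.0, -4.28 ± 0.90, -4.28 ± 1.05 and -5.99 ± 0.93 (-2.40 at 3 h without fed replicate 2). Fed means ran from 0.951 ± 0.835 CPM at 3 h to 6.80 ± 6.39 CPM at 24 h, and no neighbours in their order differed beyond the larger SD.

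In macrophage nuclei Serpina9 fell at 24 h, where the fed libraries held 1.72, 5.89, 0.294 and 4.83 CPM and the fasted ones 0, 0.0382, 0 and 0 CPM. Over these libraries that is 302 counts against 1, a ratio of 324 with an exact 95% counting interval of 57.8 to 12900 (edgeR adjusted p = 2.08e-04). At 16 h the fed values were 1.46, 0.0678, 0 and 0.183 CPM and the fasted ones 0, 0.0494, 0 and 0 CPM, 39 counts against 1, a ratio of 48.7 (interval 8.24 to 1970). That fall was called (edgeR adjusted p = 0.0352) but not without fed replicate 1 (0.356) or fasted replicate 1, 3 or 4 (0.13, 0.0562 and 0.0776). The 3 h libraries (0.146, 1.59, 2.46 and 0.722 CPM fed and 0.332, 0.422, 0 and 0.0921 CPM fasted) overlapped, with a change of -2.44 ± 0.88 (edgeR adjusted p = 0.0654, and 0.0428 or 0.0458 without fed replicate 1 or fasted replicate 2). At 8 h both groups were near 0, with 14 counts fed and 3 fasted. Serpina9 had the smallest p of the members for time of day in fed macrophage libraries (edgeR adjusted p = 0.00299), highest at ZT12 (3.18 ± 2.62 CPM). The filter on low counts, described next, limits this call too, since no 8 h fed library was above its level.

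Serpina9 passed the filter on low counts only through fed libraries: 7 of 16 fed and 0 of 16 fasted macrophage libraries were above 0.43 CPM, the level the filter asks for. Treh passed only through fasted ones, with 0 of 16 fed and 7 of 16 fasted libraries above it. In hepatocyte nuclei, where the level was 0.535 CPM, Serpina9 was above it in 13 of 16 fed and 0 of 16 fasted libraries. Treh was above it there in 0 of 16 fed and 13 of 16 fasted libraries. The fitted changes and ranks of both in hepatocyte nuclei share this limit. Genes that enter a test this way had to differ, so their calls say less than those of the other 5, which passed in both states. Without the filter the calls of both in macrophage nuclei were the same at each time.

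Of the 14 tested relatives of Serpina9 among clade A serpins, 3 rose and 2 fell at 3 h, 5 fell at 8 h, and 2 fell at both 16 and 24 h. The share of all genes called in either direction was 39.9%, 38.7%, 18.1% and 24.0% at 3, 8, 16 and 24 h. Serpina12 (vaspin), 15.1 kb from Serpina9, fell by 2.18 ± 0.73 at 8 h and 4.13 ± 0.89 at 24 h (edgeR adjusted p = 0.0183 and 0.00126). Serpina6, the corticosteroid-binding globulin, fell by 1.85 ± 0.48, 2.25 ± 0.48 and 2.72 ± 0.50 at 8, 16 and 24 h (edgeR adjusted p = 0.00332, 0.00166 and 2.66e-04). Serpina10, the protein Z-dependent protease inhibitor, fell by 1.56 ± 0.22 at 3 h and 2.28 ± 0.23 at 8 h (edgeR adjusted p = 3.69e-06 and 1.95e-08). The Serpina3 genes that rose at 3 h, Serpina3k, Serpina3m and Serpina3n, are acute phase genes in a cluster of near copies, and their reads may be divided by the counting. By likeness Serpina9 was closest to Lifr (0.866), Selenbp2 (0.841) and Ces3b (0.837).

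Slc34a2 (chr5:53049353-53071663, plus strand) differed between times of day in fed libraries as well as by feeding state. Fed hepatocyte libraries held 10.8, 7.31, 7.96 and 13.1 CPM at 3 h and 16.3, 17.4, 14.0 and 9.56 CPM at 8 h. They held 4.81, 6.45, 0.873 and 2.21 CPM at 16 h and 0.798, 0.586, 0 and 0.142 CPM at 24 h. Fed libraries were thus highest in the dark phase, at ZT15 and ZT20, and lowest at ZT12. After fasting the values were 0.277, 0.159, 0.107 and 0.419 CPM at 3 h, 7.55, 2.15, 10.1 and 0.304 CPM at 8 h, 5.06, 1.47, 14.3 and 7.75 CPM at 16 h, and 0.0614, 0, 0.366 and 0 CPM at 24 h. Fasted and fed were separate at 3 h, where the fitted change was -5.15 ± 0.89 (-5.30 without fed replicate 2). They barely overlapped at 8 h (-1.49 ± 0.63), and overlapped at 16 h (0.93 ± 0.64) and 24 h (-1.34 ± 1.32). The 24 h value rests on few counts and was -3.87 without fasted replicate 3. The order of fed means was 8 h (14.3 ± 3.48 CPM), 3 h (9.79 ± 2.67 CPM), 16 h (3.58 ± 2.51 CPM) and 24 h (0.381 ± 0.373 CPM), and each was above the next by more than the larger SD of the pair.

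In macrophage nuclei Slc34a2 fell at 3 and 8 h. The fed libraries held 2.96, 0.8294, 4.64 and 2.62 CPM at 3 h and the fasted ones 0.0664, 0.384, 0.614 and 0.0307 CPM, a change of -3.17 ± 0.81 (edgeR adjusted p = 0.0113, and 0.0955 with the libraries of that time fitted alone). At 8 h the fed values were 3.16, 3.06, 2.96 and 3.60 CPM and the fasted ones 0.274, 0.165, 0.876 and 1.06 CPM, a change of -2.37 ± 0.74. The groups did not overlap at either time. The 8 h call (edgeR adjusted p = 0.0343) was lost without any 1 of 6 of the 8 libraries, fed replicates 1, 2 and 4 and fasted replicates 1, 2 and 3, with an adjusted p of at most 0.092. At 16 h the fed libraries (1.59, 3.36, 0.401 and 2.23 CPM) and the fasted ones (6.33, 2.27, 0.322 and 0.493 CPM) overlapped, and the change of 0.37 ± 0.66 turned to -0.90 without fasted replicate 1. At 24 h all 8 values were 0.184 CPM or less. The fed levels differed by time of day (edgeR adjusted p = 0.00634). A difference of the fasting effect between times was not called (edgeR adjusted p = 0.0989), but was without 3 h or 16 h fasted replicate 3 (0.0496 and 0.0484).

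Of 9 tested phosphate transporters and related carriers, 3 rose and 2 fell at 3 h, 3 rose and 1 fell at 8 h, 2 rose at 16 h, and 2 rose and 2 fell at 24 h. Over all genes the share called in either direction was 39.9%, 38.7%, 18.1% and 24.0% at these times. Xpr1, the phosphate exporter, rose by 0.60 ± 0.10 at 3 h and 0.68 ± 0.10 at 8 h (edgeR adjusted p = 4.30e-05 and 8.30e-06). Slc20a1, a sodium-phosphate cotransporter of most cells, rose by 0.96 ± 0.29 at 8 h and 1.29 ± 0.29 at 16 h (edgeR adjusted p = 0.01 and 0.00285). Slc17a3, an organic anion transporter of the same list, fell by 1.14 ± 0.19 at 8 h (edgeR adjusted p = 3.14e-05). Slc34a2 itself was closest to Tjp3 (0.896), Slc30a10 (0.894) and Kifc3 (0.892) over the hepatocyte libraries, and its correlation with Chrna4 there was 0.354.

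Treh (chr9:44673233-44686305, plus strand) was the only member with a higher fitted level after fasting at all 4 times. Its fed level in hepatocyte nuclei never exceeded 0.462 CPM in 16 libraries. The fasted libraries held 2.49, 0, 2.4 and 0.559 CPM at 3 h, 0.558, 0.442, 0.998 and 2.51 CPM at 8 h, 0.989, 0.491, 10.7 and 0.642 CPM at 16 h, and 5.83, 5.56, 4.15 and 3.65 CPM at 24 h. Fasted libraries overlapped the fed ones at 3 h, through fasted replicate 2, and lay above all of them at 8, 16 and 24 h. Fitted changes were 2.84 ± 0.99, 2.96 ± 1.18, 5.11 ± 1.15 and 4.99 ± 1.05 (2.62 at 3 h without fed replicate 2). The 16 h value rests in large part on fasted replicate 3, which held 10.7 CPM, and was 2.98 without it. The fasted mean was highest at 24 h (4.80 ± 1.06 CPM), followed by 16 h (3.19 ± 4.98 CPM), 3 h and 8 h, and no neighbours in this order differed beyond the larger SD.

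In macrophage nuclei Treh rose at 24 h, from 0, 0, 0.117 and 0.143 CPM in fed libraries to 0.794, 0.573, 1.54 and 1.2 CPM in fasted ones, a change of 3.82 ± 0.91 (edgeR adjusted p = 0.0051). At 8 h fed libraries held 0.0238, 0.0486, 0 and 0 CPM and fasted ones 0.103, 0.247, 0.602 and 0.286 CPM, 2 counts against 27, a ratio of 14.6 (interval 3.67 to 127). This rise was called (edgeR adjusted p = 0.0461) and lost without any 1 of 7 of the 8 libraries, all but fasted replicate 1, with an adjusted p of at most 0.172. The changes at 3 h (2.67 ± 0.97) and 16 h (2.58 ± 1.09) were not called (edgeR adjusted p = 0.0682 and 0.11). At 3 h the adjusted p was 0.0325 or 0.0222 without fasted replicate 1 or 2, and 0.0427 with DESeq2. Fed and fasted values were separate at 8 and 24 h and overlapped at 3 and 16 h.

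Among 11 tested glycosidases of sugar breakdown, 2 rose and 2 fell at 3 h, 1 rose and 2 fell at 8 h and at 16 h, and 2 fell at 24 h. Over all genes the share called in either direction was 39.9%, 38.7%, 18.1% and 24.0% at these times. Mgam, maltase-glucoamylase, fell at all 4 times, most at 8 h (-1.51 ± 0.21, edgeR adjusted p = 1.89e-06). Gaa, the lysosomal alpha-glucosidase that breaks down glycogen, rose at 3, 8 and 16 h, by 0.65 ± 0.15 at most (edgeR adjusted p = 0.001 at 8 h). Gba2, a glucosylceramidase, fell by 1.25 ± 0.20 at 24 h (edgeR adjusted p = 6.56e-05), with 133 and 130 bases shared with Creb3 and Rgp1. Treh had its nearest neighbour in Phldb1, whose body ends 2 bases away on the opposite strand and which fell by 0.54 ± 0.22 at 3 h and 0.79 ± 0.22 at 8 h (edgeR adjusted p = 0.0468 and 0.00506). The genes most like Treh were Ctcf (0.868 over the hepatocyte libraries and 0.417 over the pools), Nrbp2 (0.864 and 0.799) and Cfap53 (0.837 and 0.797).

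Aifm3 (chr16:17489677-17507485, plus strand) was separate between fed and fasted libraries only at 3 and 8 h, with its largest fitted change, at 8 h, the smallest such maximum of the 7 genes. Hepatocyte libraries held 5.50, 6.23, 4.52 and 5.71 CPM fed and 1.38, 4.19, 2.29 and 2.93 CPM fasted at 3 h. At 8 h they held 10.2, 8.28, 6.29 and 5.89 CPM fed and 2.98, 1.60, 2.17 and 1.29 CPM fasted. The groups were separate at both times and overlapped at 16 h (5.24 to 7.74 CPM fed, 3.95 to 7.36 CPM fasted) and at 24 h (3.68 to 5.56 CPM fed, 3.50 to 6.35 CPM fasted). The fitted changes were -0.83 ± 0.27, -1.88 ± 0.27, -0.27 ± 0.26 and 0.08 ± 0.26 (-0.80 at 3 h without fed replicate 2). In macrophage nuclei none of the 4 changes was called (between -0.41 ± 0.42 and 0.80 ± 0.42, edgeR adjusted p at least 0.253).

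Of 11 relatives of Aifm3, genes of the AIF family and mitochondrial death factors, 6, 2, 2 and 1 were called at 3, 8, 16 and 24 h. Those at 3 h were 3 up and 3 down. The share of all genes called was 39.9%, 38.7%, 18.1% and 24.0%, also highest at 3 h. Aifm2, which protects membranes from lipid peroxidation, rose at all 4 times, by 1.14 ± 0.18 at 3 h and 0.57 ± 0.18 at 24 h (edgeR adjusted p = 1.38e-05 and 0.0224), and shares 614 bases with H2afy2. Aifm1, the founding member, fell by 0.45 ± 0.10 at 3 h (edgeR adjusted p = 7.02e-04). Bcl2l1, an inhibitor of apoptosis, rose by 1.29 ± 0.23 at 3 h (edgeR adjusted p = 4.96e-05), and shares 6306 bases with Cox4i2 on the opposite strand. Over the hepatocyte libraries Aifm3 was closest to Apol7a (0.907), Parp3 (0.879) and Bcat2 (0.875). Over the 16 pools these correlations were lower, at 0.749, 0.544 and 0.723.

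Side by side in macrophage nuclei, of the 5 members that passed the filter in both feeding states 3 fell at 3 h, 4 at 8 h, 3 at 16 h and 3 at 24 h, and none rose. Of all 13864 genes, 12.4%, 12.8%, 13.7% and 11.7% were called at these times: 4.68%, 5.40%, 5.99% and 6.35% of genes fell and 7.70%, 7.44%, 7.72% and 5.31% rose. Of all 7 genes 3, 5, 4 and 5 were called. Without single libraries these counts ran from 3 to 6 at 3 h and from 3 to 4 at 8 h, and the 6 came without fasted replicate 2. Time of day was called in fed macrophage libraries for Chrna4, Ptgds, Serpina9 and Slc34a2, 4 of 7, where 12.8% of all genes were called. Serpina9 passed the filter only through fed libraries, and no 8 h one was above its level. A difference was thus partly built into its call. For Chrna4 (edgeR adjusted p = 0.0151) the time-of-day call was lost without 16 h fed replicate 3 (0.0539), and for Ptgds (0.0241) without 16 h fed replicate 2 or 3 or 24 h fed replicate 1, 2 or 4 (at most 0.0844). A1bg, not called (0.0937), was called without 3 h fed replicate 2 (0.0339).

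**Figure D3:**
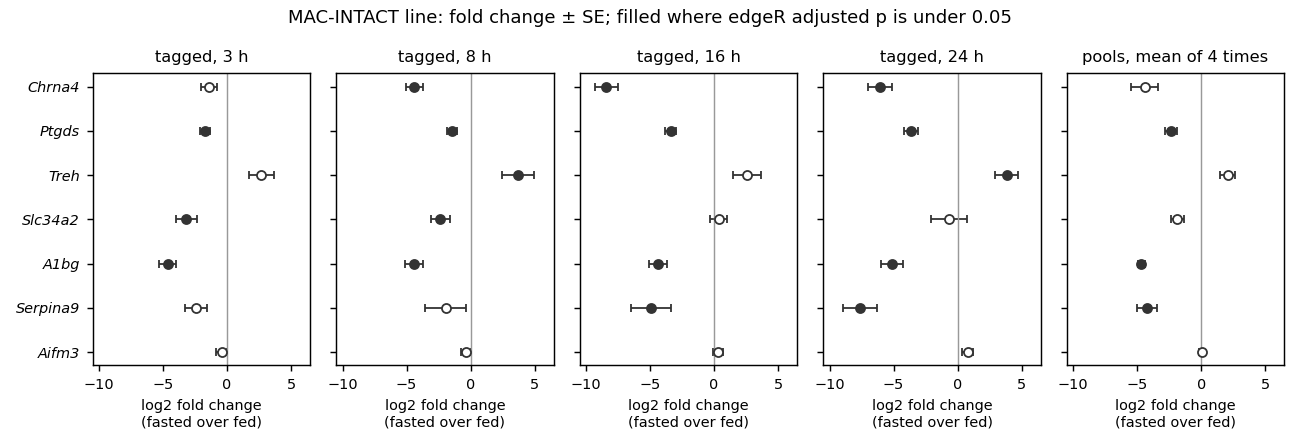
Fitted log2 fold change (fasted over fed, horizontal axis, ± SE) of each gene in the MAC-INTACT line, with 1 panel per time for tagged nuclei (4 against 4 libraries) and 1 for the mean over the 4 times in pools (4 against 4); filled points have an edgeR adjusted p under 0.05. A1bg lies between -5.11 and -4.39 in every panel, Chrna4 moves from -1.42 at 3 h to -8.41 at 16 h, and Treh is on the positive side throughout.

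All 7 genes were lower in macrophage nuclei than in the pools of the same mice's line, by 1.01 to 1.26 on the log2 scale (edgeR adjusted p at most 0.0371), where 76.8% of all 13953 genes were called and 40.7% were lower. For Serpina9 the call was lost without the filter (adjusted p = 0.0506), with DESeq2 (0.129) and with fed conditions only (0.111). As a ratio to the pools in fed mice, Chrna4 stood at 0.485, Ptgds at 0.476, A1bg at 0.482, Serpina9 at 0.456, Slc34a2 at 0.389, Aifm3 at 0.499 and Treh at 0.268. The 12 hepatocyte markers stood at a median of 0.410 (0.343 to 0.531), and markers of endothelium, stellate cells, cholangiocytes and lymphocytes at medians of 0.376 to 0.501. Kupffer cell and macrophage markers were at 13.2 to 23.9 times the pools. In fed mice 6 of the members thus lay within the range of the hepatocyte markers, and Treh, with few counts there, below it. The same 6 also lay within the wider ranges of endothelial (0.315 to 1.98), stellate cell (0.377 to 1.04), cholangiocyte (0.377 to 4.10) and lymphocyte markers (0.384 to 15.6). Over fed and fasted conditions together all 7 lay within the range of the hepatocyte markers (0.383 to 0.555), with Treh at 0.512 and the other 6 at 0.428 to 0.498.

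**Figure D4:**
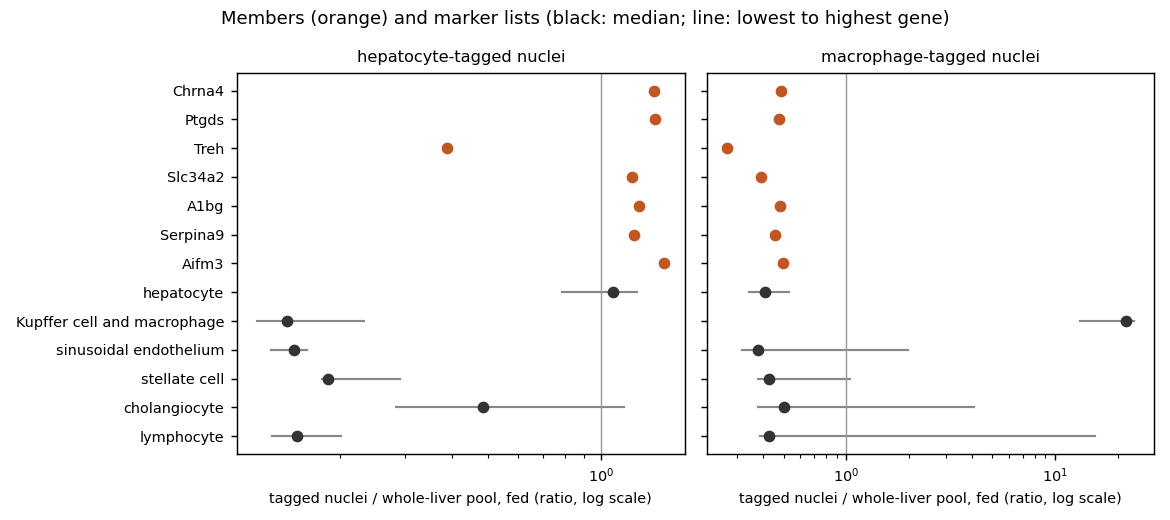
Ratio of the level in tagged nuclei to that in whole-liver pools of the same line, fed mice only (log axis; 1 means equal), for each member (orange) and for 6 marker lists (black point at the median gene, line from the lowest to the highest gene). In macrophage-tagged nuclei the members lie between 0.268 and 0.499, far from Kupffer cell and macrophage markers at 22.0. Hepatocyte markers lie at 0.410 there, and the medians of the other lists at 0.376 to 0.501. In hepatocyte-tagged nuclei 6 members lie above 1.

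The summed level of the 12 hepatocyte markers in macrophage nuclei was 5292 to 8978 CPM in fed and 8394 to 15495 CPM in fasted libraries at 3 h, 4060 to 6327 and 7917 to 9098.5 CPM at 8 h, 5088 to 6473.1 and 6241.5 to 8446.5 CPM at 16 h, and 5816 to 10644 and 8848 to 12499 CPM at 24 h. Its mean was thus higher in the fasted group at each time, while Chrna4, Ptgds, A1bg and Serpina9 had lower means there at each time. Slc34a2 (other than at 16 h) and Aifm3 (at 3 and 8 h) also had lower fasted means, whereas Treh at all 4 times, Slc34a2 at 16 h and Aifm3 at 16 and 24 h had higher ones. Summed Kupffer cell and macrophage markers were 4495 to 7930.0 CPM over all groups. Summed lymphocyte markers (8 genes) had lower fasted means at each time, with 1237.2 to 1840.0 CPM fed and 1010.2 to 1470.7 fasted at 3 h, 1288.1 to 1771.5 and 559.8 to 1323.9 at 8 h, 1015.2 to 1566.6 and 487.1 to 771.4 at 16 h, and 1077.1 to 1234.7 and 517.5 to 750.3 at 24 h. Most of that sum was Bank1 (557.1 to 1507 CPM in group means), and the B cell genes Cd79a and Ms4a1 had means of at most 1.17 CPM, both with a higher mean in the fasted group at 16 h. Summed cholangiocyte markers, again mostly Pkhd1, were 142.6 to 205.8 CPM fed and 70.9 to 111.0 fasted at 3 h and 159.0 to 214.5 and 62.1 to 95.3 at 8 h, and overlapped at 16 and 24 h. The source of the members' RNA within macrophage preparations was not tested.

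In hepatocyte nuclei only Aifm3 was called against the pools, higher by 0.65 ± 0.15 (edgeR adjusted p = 3.41e-04), where 50.3% of all 13463 genes were called and 28.8% were higher. The other 6 differed by -0.27 to 0.33 with standard errors of 0.29 to 0.58 (edgeR adjusted p at least 0.562). This fit included the 24 h fasted pool named above, and a fit without that pool alone was not run. Chrna4 and A1bg, at -0.27 and -0.22 here, were at 0.63 and 0.39 with fed conditions only, neither called (edgeR adjusted p = 0.448 and 0.71). In fed mice alone the ratios to the pools were 1.21 to 1.48 for 6 members and 0.389 for Treh (1.43 over fed and fasted conditions together), whose 16 h fed pool held 1.15 CPM against 0.0460 to 0.134 CPM in tagged libraries. Hepatocyte markers had a median ratio of 1.08 and endothelial markers of 0.151.

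The pools of the MAC-INTACT line, 4 fasted against 4 fed, gave a test in unpurified liver of the line that was not used to choose the genes. A1bg fell from 45.0, 26.1, 41.9 and 11.01 CPM at 3, 8, 16 and 24 h to 3.08, 0.584, 1.28 and 0.345 CPM, a mean change of -4.67 ± 0.28 (edgeR adjusted p = 8.68e-04) and the second largest of 13375 genes. Serpina9 fell from 2.45, 0.357, 0.695 and 7.44 CPM to 0.378, 0, 0.0624 and 0 CPM (edgeR adjusted p = 0.0282). It passed the filter only through fed pools, with 3 of 4 fed and 0 of 4 fasted pools above 0.489 CPM, so that a difference was built into this call. At 24 h its fed pool was at least 50.4-fold higher, taking 3 counts as the limit for the fasted pool. Ptgds fell from 4.14, 8.69, 10.6 and 3.69 CPM to 2.03, 2.24, 0.718 and 0.443 CPM (-2.35 ± 0.47, edgeR adjusted p = 0.0358). All 3 genes were lower in every fasted pool than in its fed partner.

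Chrna4 went from 12.1, 42.0, 56.7 and 16.8 CPM to 5.25, 1.80, 0.187 and 0.197 CPM in these pools, a mean of -4.41 ± 1.07 that was not called (edgeR adjusted p = 0.0675). Slc34a2 went from 5.80, 9.35, 5.26 and 0.121 CPM to 0.662, 1.46, 3.56 and 0.148 CPM (-1.85 ± 0.49, edgeR adjusted p = 0.0766). Treh went from 0.141, 0.0595, 0.347 and 0.182 CPM to 0.804, 0.389, 0.312 and 2.02 CPM (2.07 ± 0.61, edgeR adjusted p = 0.0929). Aifm3 was at 0.04 ± 0.18 (edgeR adjusted p = 0.926). Treh passed the filter only through fasted pools, 2 of 4. Of the 5 members that passed in both states, A1bg and Ptgds were called, both lower, and with Serpina9 the count was 3 of 7. Of all genes 6.47% were called and 3.73% were lower. The calls were near the threshold: without 1 pool Ptgds was lost for either 8 h or 24 h pool (adjusted p at most 0.144), Serpina9 for either 8 h or 16 h pool (at most 0.103), and Chrna4 was gained for either 3 h pool (at most 0.0167), Treh and Slc34a2 for either 16 h pool (at most 0.0257). DESeq2 also called Chrna4 (adjusted p = 1.80e-04) and Slc34a2 (0.0037), and edgeR without the filter did not call Ptgds (0.0557).

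**Figure D5:**
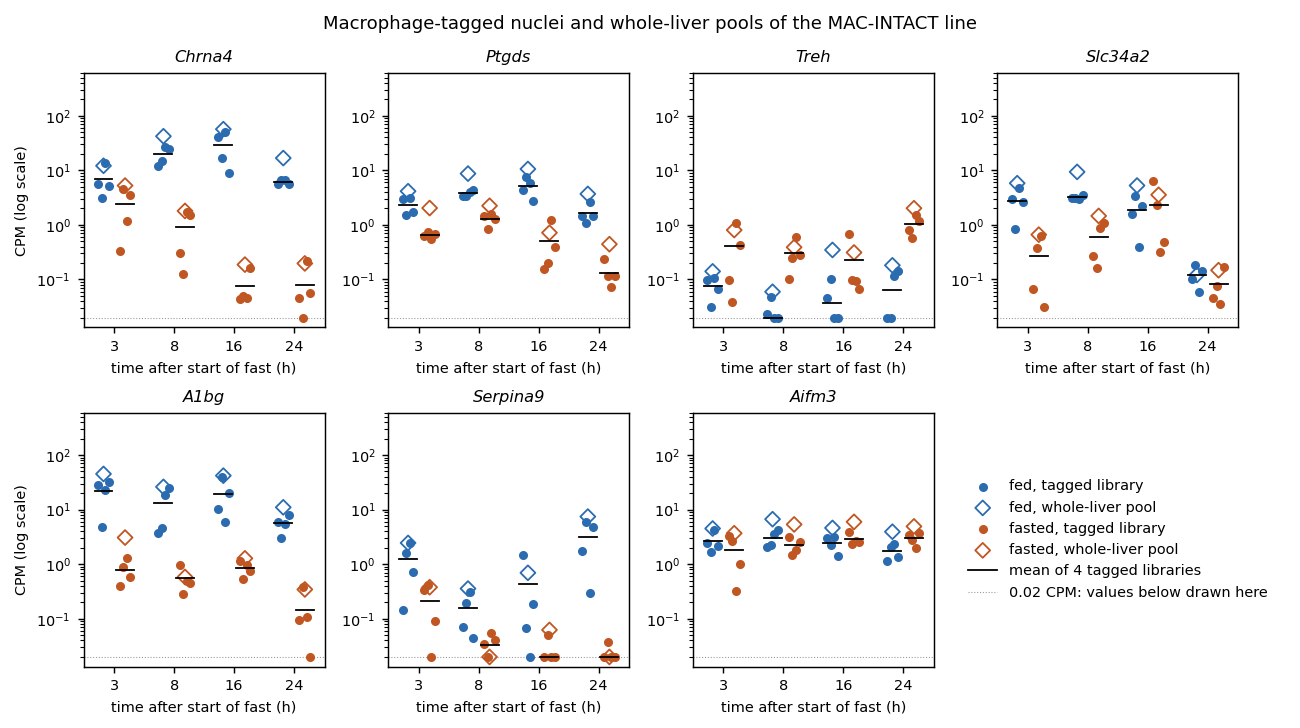
Level of each gene (CPM, log axis) in the MAC-INTACT line against hours since the start of the fast, drawn as in the plot of hepatocyte levels, with filled points for tagged libraries, black bars for means of 4 and open diamonds for pools. Fed pools lie above the mean of the fed tagged libraries for A1bg and Ptgds at all 4 times, and among tagged libraries the fasted points lie below the fed points of the same time for both genes.

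The authors' deposited tables of selected genes list 4 of the 7 members, Treh, Slc34a2, A1bg and Aifm3, among 4745 hepatocyte genes, and none among 3762 macrophage genes. In the authors' deposited table the log2 fold changes of Treh were 2.87, 3.10, 5.15 and 4.92 at 3, 8, 16 and 24 h. Those of Slc34a2 in the authors' deposited table were -5.18, -1.49, 0.92 and -1.68.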

How the data were processed

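Strand-specific libraries of total nuclear RNA, without selection for polyadenylated RNA, were sequenced as 50-base read pairs, per the labels' protocols. The authors deposited raw counts per gene for 80 libraries, and tables of selected genes with log2 fold changes and adjusted p-values and a signal per library (normalised counts), which was not used. Per the submitters' processing notes the build was mm10, and the tools included STAR (2.4.2a) and DESeq2 (1.24.0). Neither the counting tool nor its strand setting is stated there.

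Counts were filtered (filterByExpr, count minimum 10, total minimum 15), scaled by TMM and tested in R 4.3.3 with edgeR 4.0.16 (robust quasi-likelihood, Benjamini-Hochberg adjustment over all genes tested, threshold 0.05). Fits used all 32 tagged libraries of a line, tagged nuclei and pools with condition as a term (32 against 8), or 8 pools with time as a term. Printed CPM are unscaled. All members passed the filter. Alternatives were RLE scaling, no filter, DESeq2 1.42.0, a term for runs of consecutive library numbers, single times, other pools and each library left out. The scripts were tested on simulated data. The most alike replicates differed by 12.4 times the sampling noise (chi-square per degree of freedom), so none was counted as a duplicate. Intervals cover counting error only. Besides the members, the text names the 3 genes most like each, neighbours within 50 kb and examples of called relatives from 7 lists. Members and lists were chosen with earlier results of these data known.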

Additional observations from a re-analysis of the deposited data

Results flagged for a closer look

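Among 112 groups of 4 tagged libraries (7 genes in 16 groups), 11 held a library whose gap to the nearest other exceeded Dixon's 95% critical share of the group's range, and chance gives about 1 in 20 groups. In hepatocyte nuclei these were Chrna4 in 16 h fed replicate 2 (61.6 CPM), A1bg in 24 h fed replicate 1 (65.2 CPM), and Treh in 3 h fed replicate 1 (0.462 CPM) and 16 h fasted replicate 3 (10.7 CPM). Slc34a2 in 24 h fasted replicate 3 (0.366 CPM) and Serpina9 in 16 h fasted replicate 3 (0 CPM) rest on few or no counts. In macrophage nuclei they were Chrna4 in 16 h fasted replicate 4 (0.164 CPM), Treh in 16 h fasted replicate 1 (0.671 CPM), and Serpina9 in 16 h fed replicate 1 (1.46 CPM), 16 h fasted replicate 2 (0.0494 CPM) and 24 h fasted replicate 2 (0.0382 CPM), both of the last being a single count.

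The fasting effect on Chrna4 differed between the 4 times in macrophage nuclei (edgeR adjusted p = 0.00276), from -1.42 ± 0.60 at 3 h to -8.41 ± 0.91 at 16 h. Fed means there were 6.91, 19.6, 29.2 and 6.17 CPM at 3, 8, 16 and 24 h. Hours of fasting and time of day cannot be told apart in this difference.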

How the results depend on the processing

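No paired analysis was possible because the labels give no replicate numbers that tie fed to fasted libraries. Replicates were numbered within groups in accession order. Low counts limit Serpina9 and Treh. The labels do not say whether the HEP-INTACT pools hold mice of the hepatocyte libraries.

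Outside of leaving out single libraries, 94 counts of called genes or of lower members stayed within 1.5 times and 8 did not. Members for which the fasting effect differs between times numbered 1, and 2 with DESeq2 and with library run as a term. Members called in pools numbered 3, and 5 with DESeq2, 5 with all 16 pools, 0 with HEP-INTACT pools and 0 with these without the 24 h pair (added after the data were seen). At 16 h in hepatocyte nuclei, libraries of that time alone called 2 neighbours and 4 relatives. Leaving out single libraries gave 3 to 6 members at 3 h and 3 to 4 at 8 h in macrophage nuclei, 1 to 3 that differ between times, 2 to 5 for time of day and 1 to 4 in pools, and at 16 h in hepatocyte nuclei 2 to 6 neighbours and 9 to 17 relatives. The cause of these shifts was not tested.

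Against the pools, hepatocyte nuclei changed sign for Ptgds (-0.07), Treh (-0.12) and Slc34a2 (-0.44) with DESeq2, and for Chrna4 (0.63) and A1bg (0.39) with fed conditions only (added after the data were seen). Aifm3 in pools changed to -0.58 with HEP-INTACT pools, -0.24 with all 16, -0.90 with the former without the 24 h pair, and ran from -0.07 to 0.16 without single pools. Slc34a2 at 16 h in macrophage nuclei ran from -0.90 to 0.80. None of these was called in either direction.

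Over all genes, counts that moved by more than 1.5 times outside of leaving out single libraries were, with libraries of that time alone, 247 in place of 1716 for macrophage nuclei at 3 h, 989 in place of 1901 at 16 h, and 885 in place of 2343 for hepatocyte nuclei at 16 h. DESeq2 gave 1645 in place of 645 genes that differ between times and 1390 in place of 866 in pools, where all 16 pools gave 3656, HEP-INTACT pools 2 (2847 at an unadjusted p under 0.05) and these without the 24 h pair 19. Hepatocyte nuclei against pools gave 3881 higher and 2890 lower genes, 2934 and 3731 without the filter, and 1594 and 2579 in fed conditions only. Without single libraries the counts of called genes ran from 702 (without fasted replicate 3) to 2720 (without fasted replicate 2) in macrophage nuclei at 3 h. They fell to 702 of 1781 at 8 h (without fasted replicate 3), 922 of 1901 at 16 h (without fasted replicate 1), 1134 of 1771 for time of day (without 24 h fed replicate 4) and 179 of 866 in pools (without the 8 h fasted pool). In hepatocyte nuclei they fell to 1485 of 2343 at 16 h (without fasted replicate 3). Counts were also over 1.5 times lower without macrophage fed replicates 3 and 4 at 3 h (971 and 1122), 1 and 2 at 8 h (1023 and 942) and 1 and 4 at 16 h (1187 and 1168), and without either 3, 8 or 16 h pool (179 to 544).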
